A study of Homo sapiens with 4 samples.

Results

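The BCL2 family is the set of proteins that decides at the mitochondrion whether a stressed cell lives or dies. The 10 family genes described here were taken by name from a table of 61541 genes, by a rule that uses no measured value, although earlier results of these data were known when the set was proposed. They were the anti-apoptotic genes BCL2, BCL2L1 and MCL1, the pore-forming effectors BAX and BAK1, and the BH3-only genes BID, BCL2L11, PMAIP1, BBC3 and BIK. Transcripts were measured by RNA sequencing in MDA-MB-231, a cultured human breast cancer line of basal type that lacks hormone receptors, in 2 groups with 2 libraries each. Control cells were left untreated, and cadmium-resistant cells had been selected by serial passaging in cadmium sulfate and were grown at 10 µM. Selection over many passages and the presence of the metal go together in these cells, so that the effect of one cannot be told apart from that of the other. The labels call the controls biological replicates and the cadmium libraries replicates, and nothing further says that they came from separate selections, so the p-values measure only the spread between these libraries.

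In a healthy cell, BCL2, BCL-XL (the main product of BCL2L1) and MCL1 hold the effectors and the BH3-only proteins in check by binding their BH3 segment, a short helix, in a surface groove. Stress raises or activates BH3-only proteins, which fill that groove or act on BAX and BAK directly, and BAX and BAK then open the outer mitochondrial membrane so that cytochrome c escapes and caspases are switched on. Many of these proteins are controlled by cleavage, phosphorylation or rapid degradation, so transcript levels give one layer of the balance. Cadmium is a toxic metal that causes oxidative stress, and the sensing of metals by the transcription factor MTF-1 was the subject of the study.

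The BH3 core is the segment that these 10 proteins share. It is shown because the groove described above binds this segment of the effectors and the BH3-only proteins. The coding bases around it are printed from hg38 (GENCODE canonical transcripts), 5′ to 3′ on the coding strand. Each stretch is 36 bases long, and capitals mark the codon for the conserved leucine and the codons for the small residue and aspartate that follow 3 residues further on.
BCL2: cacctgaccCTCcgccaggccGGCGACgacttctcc
BCL2L1: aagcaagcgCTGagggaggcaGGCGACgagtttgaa
MCL1: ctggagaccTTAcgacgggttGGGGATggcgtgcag
BAX: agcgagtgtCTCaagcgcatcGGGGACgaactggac
BAK1: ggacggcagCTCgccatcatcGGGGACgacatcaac
BID: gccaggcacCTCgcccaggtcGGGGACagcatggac
BCL2L11: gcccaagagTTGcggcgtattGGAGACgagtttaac
PMAIP1: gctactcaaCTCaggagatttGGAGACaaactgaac
BBC3: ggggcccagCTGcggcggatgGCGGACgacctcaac
BIK: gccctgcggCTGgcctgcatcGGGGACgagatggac
The small residue was glycine in 9 of the 10 proteins and alanine in BBC3. Each protein held exactly 1 such match. It lay at residues 97 to 102 of the 239 residues of BCL2 and at residues 29 to 34 of PMAIP1, whose 54 residues make it the shortest protein of the set. The stretches lie in coding exons at chr18:63318352-63318387 (BCL2, minus strand), chr20:31721925-31721960 (BCL2L1, minus), chr1:150578868-150578903 (MCL1, minus), chr19:48955778-48955813 (BAX, plus) and chr6:33575390-33575425 (BAK1, minus). Those of the BH3-only genes lie at chr22:17739418-17739453 (BID, minus), chr2:111150094-111150129 (BCL2L11, plus), chr18:59902664-59902699 (PMAIP1, plus), chr19:47226582-47226617 (BBC3, minus) and chr22:43127707-43127742 (BIK, plus).

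Between 51934729 and 61916007 reads per library were assigned to genes, and the libraries are named by the numbers in the count table (control 2, control 3, cadmium 1 and cadmium 2). The line's markers VIM, CD44, KRT8 and KRT18 were at 163 to 714 TPM (a level per length of gene, scaled to the same total in each library), and the hormone receptor genes ESR1 and PGR were at 0.153 TPM or less. The luminal markers CDH1 and GATA3 reached 7.91 TPM (in control 3) and 21.1 TPM (in control 2). A list of 7 markers of blood, endothelial and stromal cells summed to 7.51 TPM in control 2 and 18.3 in control 3. In the cadmium libraries the sums were 12.7 and 12.9. In control 2 and control 3 in turn, PTPRC had 2 and 135 reads, PECAM1 169 and 792, and COL1A1 529 and 875. LUM went the other way with 75 and 14 reads, as did CDH5 with 4 and 2. DCN had 0 reads in both controls, and CD3E had 0 reads in all 4 libraries. The part of these markers in the results was not tested. The control libraries stood apart from each other. Of 12924 genes with a mean of at least 100 normalized counts, 14.2% differed over 2-fold between control 2 and control 3, and 0.317% between the cadmium libraries. In bulk RNA, fewer cells expressing a gene and less RNA per cell cannot be told apart.

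All 10 members were detected in every library. None of them differed between cadmium and control cells in the DESeq2 test across all genes (adjusted p below 0.1), while 225 of 19816 genes tested did, a share of 1.14%. The smallest adjusted p of a member was 0.971, for BBC3. At an unadjusted p below 0.05 the count of members was also 0 by DESeq2, where 6.92% of all genes passed. It was 0 as well by edgeR (1506 of 19241 genes tested passed) and by limma-voom (1423 of 19241). Those last tools called no gene of the table at an adjusted p below 0.1. The members' log2 fold changes ran from -0.60 (BCL2L11) to 0.44 (BBC3), with 5 above 0 and 5 below, and a median of 0.00 beside -0.02 over all genes tested. A p that misses the threshold does not show that levels were equal. For 6 members (BCL2L1, MCL1, BAX, BAK1, BID and PMAIP1) the 95% interval of the fold change lay within 2-fold in both directions, whereas the intervals of BCL2, BCL2L11, BBC3 and BIK reached past 2-fold on at least one side.

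The levels of the family, per length of gene, spanned 150-fold. BCL2L1 was the most abundant member at 545 ± 68.9 TPM (mean ± SD over the 4 libraries), rank 243 among 33455 genes with a read. MCL1 followed at 267 ± 44.2, BAX at 165 ± 8.65, PMAIP1 at 114 ± 23.7, BAK1 at 75.8 ± 6.05 and BID at 43.3 ± 6.31 TPM. Over these 6 genes and down to BBC3, the 4 libraries of each gene lay wholly above those of the next one. BBC3 (18.0 ± 4.80 TPM), BCL2L11 (11.7 ± 6.83), BCL2 (3.69 ± 1.86) and BIK (3.63 ± 0.401) came last, and neighbours among these 4 overlapped in range. The gene that gives the family its name was thus among its lowest transcripts per length in this line, at a level close to BIK in the mean. The length is that of all annotated exons, 12612 bases for BCL2 and 951 for BIK. BCL2 had 277 to 1153 reads per library and BIK 38 to 54. Which of these exons the cells use was not tested.

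**Figure D1:**
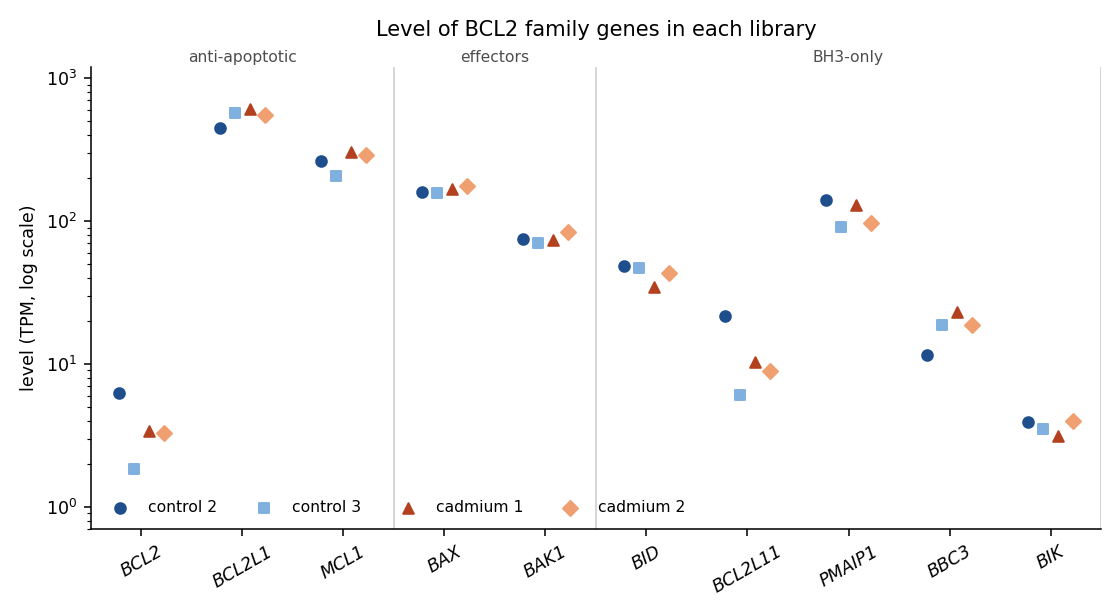
Level of each BCL2 family gene in TPM (log axis) in the 4 libraries, grouped by role, with 1 point per library. BCL2L1 and MCL1 sit highest, BCL2 and BIK lowest, and the control points of BCL2 and BCL2L11 lie further apart than their cadmium points.

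Of the anti-apoptotic genes, BCL2 (ENSG00000171791, chr18:63123346-63320128) encodes the founding survival protein. It had 1091 normalized counts in control 2 and 294.5 in control 3, against 544.4 and 547.0 in the cadmium libraries. The control libraries were 3.70-fold apart and enclosed the cadmium libraries, which were nearly equal. The log2 fold change was -0.34 (SE 0.56, 95% interval -1.44 to 0.75, n = 2 per group, DESeq2 adjusted p 1.00).

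BCL2L1 (ENSG00000171552, chr20:31664452-31723989), whose long product BCL-XL guards the mitochondrial membrane and whose short splice form promotes death, had 25965 normalized counts in control 2 and 30408 in control 3, against 32601 in cadmium 1 and 30776 in cadmium 2. Both cadmium libraries were above both controls, by a margin over control 3 that was smaller than the distance between the cadmium libraries. The log2 fold change was 0.17 (SE 0.25, interval -0.32 to 0.66). On the TPM scale the values were 448, 567, 611 and 555, and there cadmium 2 lay below control 3. The table holds a gene total, so the long and short forms were not separated.

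MCL1 (ENSG00000143384, chr1:150560895-150579738) encodes a survival protein with a rapid turnover. Its 22713 and 16361 normalized counts in the controls were both below the 24215 and 23912 in the cadmium libraries. The means were 19537 ± 4492 and 24063 ± 215 (SD, n = 2), and the log2 fold change was 0.30 (SE 0.28, interval -0.26 to 0.86, unadjusted p 0.291 by DESeq2 across all genes). MCL1 was also above both controls in TPM, and the distance between the controls exceeded the distance between the group means.

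The effectors were the steadiest members. BAX (ENSG00000087088, chr19:48954815-48961798) and BAK1 (ENSG00000030110, chr6:33572547-33580293) encode the proteins that form the pore in the outer membrane. BAX had 5699 and 5181 normalized counts in the controls and 5534 and 6010 in the cadmium libraries. BAK1 had 2293 and 1981 in the controls and 2080 and 2465 in the cadmium libraries. For both genes the groups overlapped in normalized counts, although in TPM both cadmium values of BAX (168 and 176) were above both controls (160 and 157). The log2 fold changes were 0.09 for BAX (SE 0.25, interval -0.40 to 0.57) and 0.09 for BAK1 (SE 0.27, interval -0.44 to 0.62). BAX supplied 67.6% to 69.5% of the summed TPM of BAX and BAK1 in every library. Other family genes outside this set, such as BOK (mean 64.0 TPM), were not in that sum.

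Among the BH3-only genes, BID (ENSG00000015475, chr22:17734138-17774770) encodes the protein that caspase-8 cuts to link death receptors to the mitochondrion. It had 2958 and 2669 normalized counts in the controls and 1941 and 2513 in the cadmium libraries, which were both below the controls on either scale. It was the only member below the control range, with a log2 fold change of -0.34 (SE 0.28, interval -0.89 to 0.21, unadjusted p 0.231, DESeq2 adjusted p 0.991). The distance between the cadmium libraries, 1.29-fold, was larger than the gap between the groups.

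BCL2L11 (ENSG00000153094, chr2:111119378-111168445) encodes BIM, a broad activator of BAX and BAK. It had 1984 normalized counts in control 2 and 514.6 in control 3, against 868.8 and 782.9 in the cadmium libraries. As for BCL2, the controls lay on either side of the cadmium libraries, here 3.86-fold apart. Its log2 fold change of -0.60 was the lowest of the set and had a wide interval (SE 0.56, interval -1.69 to 0.50).

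PMAIP1 (ENSG00000141682, chr18:59899996-59904305) encodes NOXA, which binds MCL1. It was the most abundant of the 5 BH3-only genes described here, with 54.7% to 64.5% of their summed TPM. Other family genes outside this set, such as BNIP3 (mean 158 TPM), were not in that sum. It had 4227 and 2551 normalized counts in the controls and 3582 and 2816 in the cadmium libraries. The controls enclosed both cadmium values, and the log2 fold change was -0.08 (SE 0.35, interval -0.77 to 0.60).

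BBC3 (ENSG00000105327, chr19:47220822-47232766) encodes PUMA, a p53 target that binds all the survival proteins. It had 507.2 and 762.4 normalized counts in the controls and 937.5 and 782.9 in the cadmium libraries. Both cadmium libraries were above the controls by normalized count, cadmium 2 narrowly so, while in TPM cadmium 2 (18.6) was level with control 3 (18.7). The log2 fold change of 0.44 was the highest of the set (SE 0.34, interval -0.23 to 1.11, unadjusted p 0.198 by DESeq2 across all genes).

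BIK (ENSG00000100290, chr22:43110750-43129712) encodes a BH3-only protein of the endoplasmic reticulum. It was counted from 54 and 40 reads in the controls and 38 and 51 in the cadmium libraries. The groups overlapped. With so few reads, and with both mates of a pair counted, the interval of its log2 fold change was wide (-0.09, SE 0.62, interval -1.31 to 1.13), so a 2-fold difference in either direction was not detectable at this depth.

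By normalized count, cadmium 1 and cadmium 2 were both beyond the controls on one side for 4 of the 10 members, higher for BCL2L1, MCL1 and BBC3 and lower for BID. Over all genes tested the share was 40.3%. In TPM the count was 3 members (MCL1 and BAX above, BID below), beside the same share over all genes, 40.3%. Only MCL1 and BID were outside the range on both scales.

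The fold changes depended on which control the cadmium libraries were set against. The controls differed more than the cadmium libraries did for 7 of the 10 members, and by over 2-fold for BCL2 and BCL2L11. The wider control pair was a feature of the whole table and not of the family alone. Over 12924 genes with a mean of at least 100 normalized counts, the median absolute log2 ratio was 0.385 in the control pair. In the cadmium pair it was 0.112. Against control 3 alone, BCL2 was higher in cadmium by 0.89 on the log2 scale, and against control 2 alone it was lower, at -1.01. BCL2L11 took the same turn, with 0.68 against control 3 and -1.28 against control 2. PMAIP1 (0.33 and -0.41), BAK1 (0.20 and -0.02) and BIK (0.05 and -0.22) likewise had opposite signs. How often the sign turned in this way over all genes was not counted, so these turns are not shown to be special to the family. The other 5 members, BCL2L1, MCL1, BAX, BID and BBC3, kept one sign against either control, but not one size. Against control 3 and control 2 in turn, MCL1 was at 0.55 and 0.07, BCL2L1 at 0.06 and 0.28, and BBC3 at 0.17 and 0.75. BAX was at 0.15 and 0.01, and BID at -0.26 and -0.42.

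With 1 control left out, DESeq2 takes the spread from the cadmium pair alone and assumes that the lone control would vary as little. Under that assumption 3 members passed without control 2, where 14.8% of all genes tested did: BCL2 (adjusted p 0.0189), MCL1 (log2 fold change 0.55, adjusted p 2.54e-05) and BCL2L11 (adjusted p 0.0396). Without control 3 the count was 6 members, where 31.2% of all genes passed: BCL2 (adjusted p 6.85e-05), BCL2L1 (0.28, adjusted p 0.0636), BID (-0.42, adjusted p 0.0723), BCL2L11 (adjusted p 7.70e-10), PMAIP1 (adjusted p 0.0537) and BBC3 (0.75, adjusted p 0.00818). BCL2 and BCL2L11 passed both times, in opposite directions. Without cadmium 1 the log2 fold change was -0.35 for BCL2 and -0.68 for BCL2L11. Without cadmium 2 the values were -0.35 and -0.53.

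**Figure D2:**
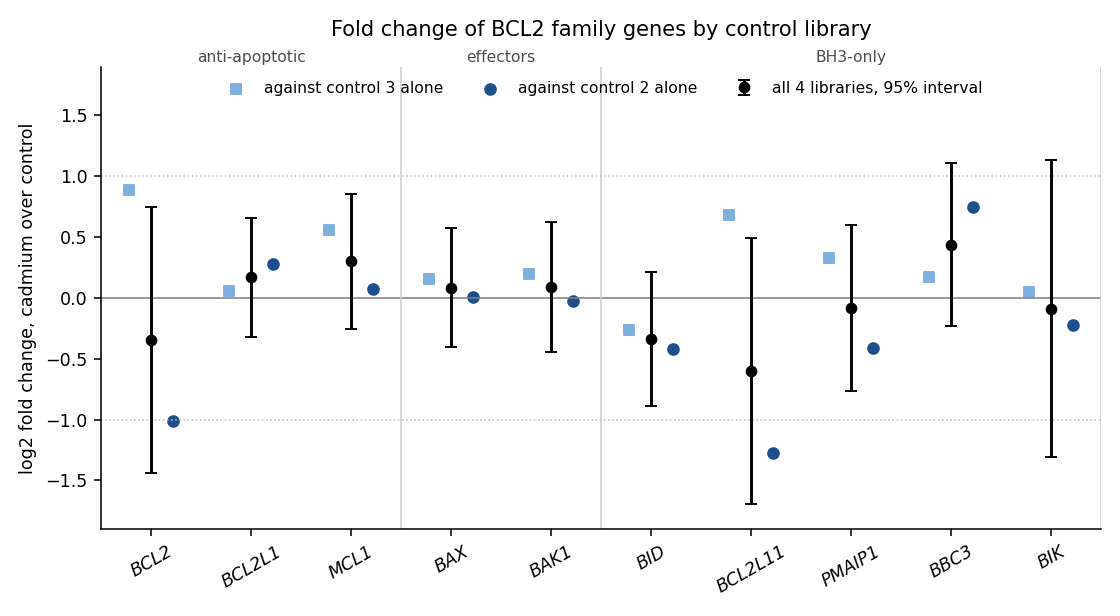
Log2 fold change (cadmium over control) of each BCL2 family gene, by role. Black points with bars are DESeq2 estimates from all 4 libraries with 95% intervals, and blue points are estimates with 1 control left out. Every interval includes 0, and the blue points of BCL2 and BCL2L11 fall on opposite sides of 0.

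The difference between the controls was compared with that of the genes around each member, using the 40 nearest genes with a mean of at least 100 normalized counts. Around BCL2 and PMAIP1, which lie on the long arm of chromosome 18 and share part of their neighbourhoods, the median neighbour was lower in control 3 than in control 2 by -0.83 and -0.82 on the log2 scale. PMAIP1 itself was at -0.73, close to its neighbours, and BCL2 was at -1.89, lower than they were. The neighbours of BCL2L11 had a median of -0.44, beside -1.95 for the gene. Around the other 7 members the median neighbour was between -0.28 and 0.04. In the comparison of cadmium with control the neighbours of BCL2 and PMAIP1 both had a median of -0.36, so that PMAIP1 stood 0.27 above its neighbours although its own fold change was -0.08, and BCL2 stood at 0.02. Whether the number of copies of these regions differed between the cultures was not tested.

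**Figure D3:**
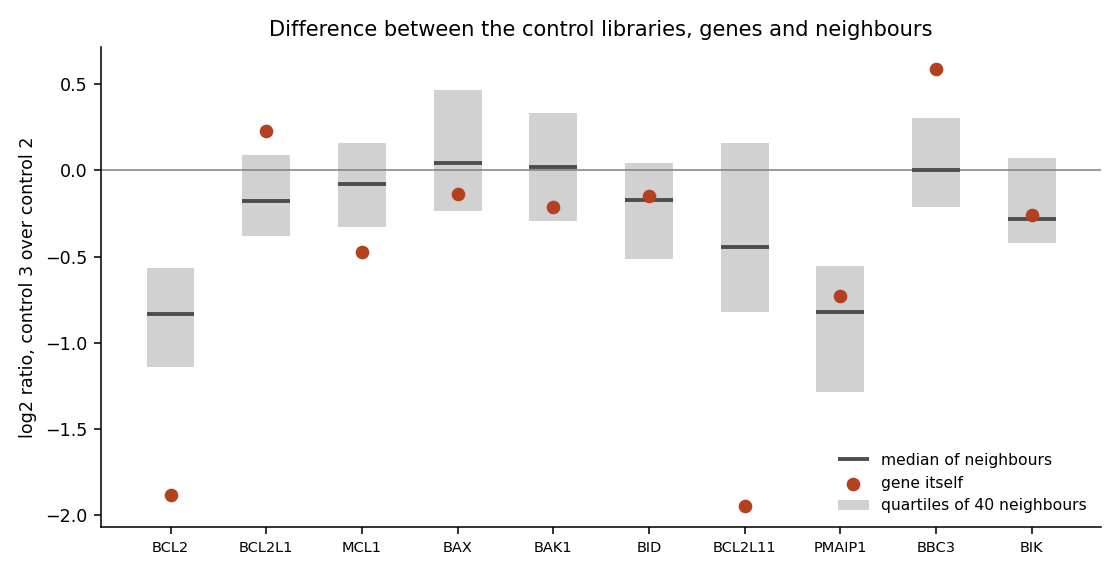
Log2 ratio of control 3 over control 2 for each BCL2 family gene (red) and for its 40 nearest expressed genes (line, median; grey box, lower to upper quartile of the neighbours). The neighbours of BCL2 and PMAIP1 lie below 0 with medians of -0.83 and -0.82, and BCL2 and BCL2L11 lie far below their neighbours.

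Since the family works as a balance, 4 ratios between members were taken within each library, which needs no scaling between libraries. BAX and BAK1 summed, over BCL2, BCL2L1 and MCL1 summed, gave log2 ratios of counts per kilobase of -1.61 and -1.77 in the controls and -1.93 and -1.71 in the cadmium libraries. The groups overlapped (difference of means -0.12, two-sided exact permutation p 0.667). The 5 BH3-only genes over the anti-apoptotic genes gave -1.67 and -2.21 in the controls and -2.20 and -2.30 in the cadmium libraries, again with overlap (difference -0.31, exact p 0.667). That overlap was narrow, with linear ratios of 0.215 in control 3 and 0.217 in cadmium 1. It holds for these genes only, since BAD and other BH3-only genes outside the set were not in the sum.

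BAX over BCL2, a ratio often used as an index of death readiness, was 25.5 in control 2 and 85.8 in control 3, against 49.6 and 53.6 in the cadmium libraries. The controls enclosed the cadmium libraries (log2 difference 0.14, exact permutation p 1.00). PMAIP1 over MCL1, the ratio of NOXA to its binding partner, had log2 values of -0.92 and -1.17 in the controls and -1.25 and -1.58 in the cadmium libraries. This was the only ratio whose groups did not overlap (difference -0.37, exact permutation p 0.333). With 2 libraries against 2 the smallest p this test allows is 0.333, so no ratio could pass. After adjustment over the 4 ratios (Benjamini-Hochberg) the exact p-values were 0.889 or above.

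**Figure D4:**
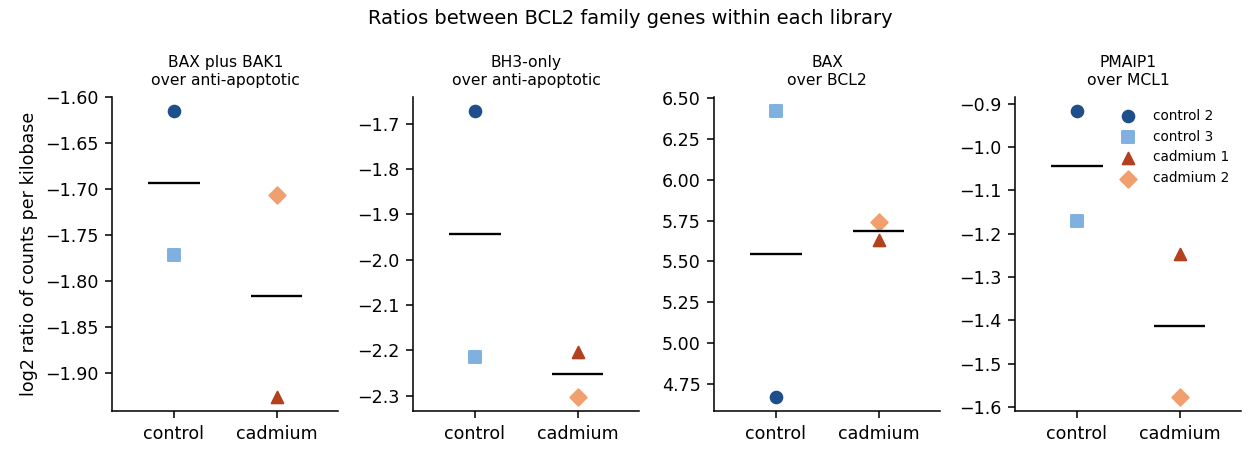
Log2 ratio of counts per kilobase between BCL2 family genes within each library, in 4 panels that each have their own axis, with group means as lines. The groups overlap in all panels except PMAIP1 over MCL1, where both cadmium libraries are below both controls.

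Most of the summed TPM of BCL2, BCL2L1 and MCL1 came from BCL2L1. The anti-apoptotic genes summed to 719 and 774 TPM in the controls and 920 and 849 TPM in the cadmium libraries, of which BCL2L1 made up 62.3% to 73.2%. The effectors summed to 235 and 227 TPM in the controls and 242 and 260 TPM in the cadmium libraries. The BH3-only genes summed to 226 and 167 TPM in the controls and to 200 and 172 TPM in the cadmium libraries. Both cadmium sums lay above both controls for the first 2 roles, and the groups overlapped for the BH3-only genes. This holds for these genes only. BOK, a family gene outside the set, was at 86.5 and 59.7 TPM in the controls and 54.5 and 55.2 in the cadmium libraries. It was not in the sums, nor was BCL2L2 (mean 29.4 TPM). Of all single genes tested, 40.3% had both cadmium libraries outside the control range in TPM. No test was run on these sums.

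The level of some members depends on how reads in shared exons were counted, because reads that overlap several genes were dropped and strand was ignored. Exons of ABALON, an RNA of the opposite strand, cover 41.3% of the exon length of BCL2L1, and ABALON had at most 3 reads in a library. The shared stretch takes 1735 of the 1903 exon bases of ABALON, and reads there were dropped, so this count does not show its level. If only the unshared length is used, BCL2L1 was at 764 to 1041 TPM. Exons of MIR4435-2HG, a host gene on the opposite strand, cover 10.9% of BCL2L11, and this gene had 6249 and 2989 normalized counts in the controls and 4001 and 4186 in the cadmium libraries. Like BCL2L11, it was highest in control 2 and lowest in control 3. ACOXL covers a further 2.89% of BCL2L11 on the same strand and had 132.5 and 256.3 normalized counts in the controls and 104.5 and 133.3 in the cadmium libraries, so it was highest in control 3. Overlaps of MCL1 with ADAMTSL4-AS1 (5.27%) and ADAMTSL4 (0.691%), of BAK1 with GGNBP1 (4.11%), and of BBC3 with MIR3190 (2.51%) and MIR3191 (2.39%) were small. BCL2, BAX, BID, PMAIP1 and BIK shared no exon bases.

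Promoters were searched for the core of the metal response element, to which MTF-1 is known to bind, and for the site of FOS and JUN (AP-1), because these factors are the subject of the study. RefSeq promoters (GRCh38.p14, 250 bases before to 50 after a start) were given for 8 of the 10 members, with 13 promoters in all. The core was searched on both strands as TGCACNC or TGCGCNC, and AP-1 as TGANTCA, and no hits of different motifs overlapped in these genes. A metal response core was found in 6 of the 13 promoters, belonging to BCL2, BCL2L1, BID, BCL2L11 and PMAIP1, and 29.5% of 34796 promoters held one. The AP-1 letters were found in BBC3 alone, and 7.73% of all promoters held them. The windows below show the metal response hits of BCL2, BCL2L11 and PMAIP1, which varied most between the controls, and the AP-1 hit of BBC3, in the direction of the gene, with the motif (or its reverse complement) in capitals.
BCL2: gtgcgccggtgGGGTGCAgcggaagaggg
BCL2, further from the start: gaggagaaaggGTGCGCAgcccggaggcg
BCL2L11: ctgtccgagccTGCACGCgccggcggccg
PMAIP1: gccgagcgctcTGCGCCCcccgccgcggg
BBC3: gcactggaaggTGAGTCActctggtgagg
They lie at chr18:63319857-63319885 and chr18:63319888-63319916 (BCL2, minus strand), chr2:111120755-111120783 (BCL2L11, plus), chr18:59899762-59899790 (PMAIP1, plus) and chr19:47232763-47232791 (BBC3, minus). A match of letters is not a bound site, and no binding data were used here.

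Other genes of the family were counted next. Of 13 further members of the BCL2 family, 9 were tested and none was called, with 1 at an unadjusted p below 0.05 beside 6.92% of all genes. That gene was BAD, a BH3-only gene whose product is held inactive by growth factor signaling, at 94.9 and 74.8 TPM in the controls and 51.8 and 60.2 TPM in the cadmium libraries (log2 fold change -0.64, SE 0.31, DESeq2 adjusted p 0.645). Both cadmium values were below both controls. BMF, a BH3-only gene, was at 3.40 and 5.66 TPM in the controls and 9.44 and 5.61 TPM in the cadmium libraries (0.70, SE 0.41, adjusted p 0.824), and BCL2L13, a mitochondrial family member, was at 28.2, 26.8, 21.1 and 21.5 TPM in the same order (-0.40, SE 0.26, adjusted p 0.894). Over the 9 genes the median log2 fold change was -0.20.

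The wider pathway was described with 56 genes in 5 lists, of which 55 were tested. DESeq2 called none of them at an adjusted p below 0.1, and 5 of the 55 had an unadjusted p below 0.05, close to the 6.92% of all genes that did. The median log2 fold change of the 55 was -0.08. Of the 14 genes of the death receptor pathway, the 3 with the smallest p were TNFSF10, TNFRSF10D and FAS. TNFSF10, which encodes the death ligand TRAIL, was at 60.5 TPM in control 2 and 16.7 in control 3, against 13.9 and 14.0 in the cadmium libraries. Both cadmium values were below both controls, but control 3 was much closer to them than to control 2 (log2 fold change -1.54, SE 0.56, unadjusted p 0.00586, DESeq2 adjusted p 0.278). TNFRSF10D, a decoy receptor for TRAIL, was at 33.8, 84.6, 142 and 116 TPM (control 2, control 3, cadmium 1, cadmium 2), with both cadmium libraries above both controls (1.11, SE 0.42, unadjusted p 0.00900, DESeq2 adjusted p 0.338). FAS, a death receptor, was at 0.791 and 1.11 TPM in the controls and 0.505 and 0.556 TPM in the cadmium libraries (-0.86, SE 0.39, adjusted p 0.566).

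Among 14 transcription factors that act on family genes, DDIT3, the stress factor CHOP, was at 22.4, 56.9, 89.0 and 66.9 TPM in the order control 2, control 3, cadmium 1 and cadmium 2 (log2 fold change 0.96, SE 0.45, DESeq2 adjusted p 0.600). E2F1, a cell cycle factor, was at 282, 234, 168 and 173 TPM (-0.64, SE 0.27, adjusted p 0.491). Both genes had cadmium libraries outside the control range, in opposite directions. FOXO1, a forkhead factor with BCL2L11 among its known targets, was at 4.13, 8.61, 4.20 and 4.41 TPM, with overlap (-0.58, SE 0.42, adjusted p 0.943).

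The remaining lists had no gene at an unadjusted p below 0.05. Among 14 genes of the mitochondrial pathway and caspases, with a median log2 fold change of -0.17, the smallest p-values belonged to ENDOG, a mitochondrial nuclease (-0.67, SE 0.53), CYCS, cytochrome c (-0.31, SE 0.26), and CASP6, an executioner caspase (-0.28, SE 0.25). ENDOG was at 39.7 TPM in control 2 and between 14.4 and 18.3 TPM in the other 3 libraries. Of 7 inhibitor of apoptosis genes 6 were tested, with a median of 0.01, led by XIAP, which blocks caspases (0.62, SE 0.40). XIAP was at 15.4 TPM in control 2 and 35.4 to 42.4 TPM in the other 3 libraries. BIRC2 (0.25, SE 0.32) and BIRC6 (-0.21, SE 0.33) followed. The 7 genes for the turnover of MCL1 and BH3-only proteins had a median of -0.02, with USP9X, which removes ubiquitin from MCL1, at -0.32 (SE 0.33), HUWE1, a ubiquitin ligase of MCL1, at 0.28 (SE 0.34), and FBXO7 at -0.18 (SE 0.25).

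**Figure D5:**
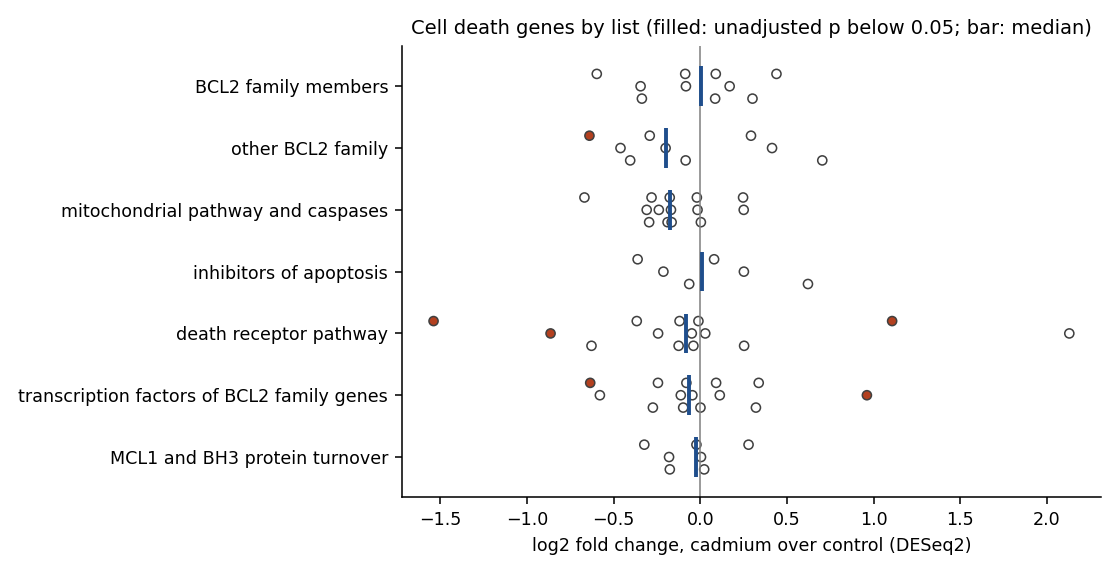
DESeq2 log2 fold change (cadmium over control) of each tested gene of the BCL2 family and of the lists of cell death genes, with 1 circle per gene. Bars are list medians, which lie between -0.20 and 0.01, and the 6 filled circles have an unadjusted p below 0.05 (BAD, TNFSF10, FAS, TNFRSF10D, E2F1 and DDIT3).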

How the data were processed

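Total RNA from 2 control and 2 cadmium-resistant cultures was sequenced as read pairs. The labels enter the molecule as genomic DNA, but their extraction and library protocols and the study's methods describe RNA, and the libraries were treated as RNA-seq. Per the file headers and the study's methods, the authors trimmed adaptors, aligned reads to hg38 with HISAT2 and counted them per Ensembl gene with featureCounts 2.0.1. The deposited values are raw counts with default settings, so mates were counted separately (70.6% to 71.5% of counts from 1 to 20 were even), strand was ignored, and reads on several genes were dropped. Controls are headed 2 and 3 in the table but labelled 1 and 2, and the header command names the control inputs by letters, so controls were assigned to their group only. No per-sample column was left unused (0). Symbols matched 61369 of 61541 genes.

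The main test was DESeq2 1.42.0 in R 4.3.3 (two-sided Wald test, median-of-ratios size factors, genes under a mean normalized count of 7.69 filtered, Benjamini-Hochberg over 19816 genes, adjusted p below 0.1), as the study used DESeq2. Normalized counts are counts divided by size factors (0.941 to 1.06). TPM was computed from the counts and the exon lengths in the table. Alternatives were edgeR 4.0.16, voom in limma 3.58.1, upper-quartile and TMM factors, other filters, halved counts, a length trend, an adjusted p below 0.05 and leaving out each library. Reading control ranges in TPM was added after seeing the data. The DESeq2, edgeR and limma-voom fits were tested on simulated counts, and other steps used Python 3.11.15. Intervals of 95% are Wald intervals, and counting error is only part of them.

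Named genes were the members, genes sharing their exons, and the called genes and the 3 smallest p-values of each other list (mean normalized count of at least 10). The members and lists were chosen with earlier results of these data known. The study's binding and accessibility assays were not used here.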

Additional observations from a re-analysis of the deposited data

How the results depend on the processing

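The 10 members stayed uncalled under TMM or upper-quartile factors, no independent filtering, at least 10 counts in each of 2 libraries, halved counts, a removed length trend, an adjusted p below 0.05, edgeR and limma-voom. The share of all genes called ran from 0.499% (no independent filtering) to 1.32% (at least 10 counts), and was 0 by edgeR and limma-voom. A count of 0 among 10 members is close to those shares. Over all genes, 225 were called (119 higher, 106 lower, 52.9% higher). Upper-quartile factors gave 152 higher and 88 lower (63.3% higher). edgeR called 0 genes (0 higher, 0 lower, 1506 at an unadjusted p below 0.05), and so did limma-voom (0, 0 and 0, with 1423). Leaving out one library gave 14 to 6189 called genes (9 to 2678 higher, 5 to 3511 lower), 0 to 6 members, 0 to 7 other BCL2 family genes and 0 to 23 pathway genes. The high values came without control 3 (without control 2: 2311 genes, 3 members, 7 pathway genes), where the spread rests on the cadmium pair. Log2 fold changes then ran from -1.01 to 0.89 for BCL2, -1.28 to 0.68 for BCL2L11, -0.41 to 0.33 for PMAIP1, -0.042 to 0.20 for BAK1 and -0.31 to 0.10 for BIK, crossing 0, while those of BCL2L1, MCL1, BAX, BID and BBC3 kept their sign under every alternative run. The BAX over BCL2 difference ran from -0.74 to 1.02, and the other 3 ratios kept their sign but not their size: BAX plus BAK1 over the anti-apoptotic genes ran from -0.23 to -0.013 (without cadmium 1), BH3-only over the anti-apoptotic genes from -0.58 to -0.038 (without control 2), and PMAIP1 over MCL1 from -0.53 to -0.20. With the median of the 40 nearest genes subtracted, BCL2 turned to 0.019, BAK1 to -0.15, PMAIP1 to 0.27 and BIK to 0.035. With the length trend removed PMAIP1 turned to 0.025. The cause of these turns was not tested. No paired analysis was possible because the numbers heading the controls differ from the labelled ones. Depth limits BIK most, with 38 to 54 reads, and the spread between 2 controls limits BCL2 and BCL2L11.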
